A study of Mus musculus with 16 samples.

Results

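The genes described here are 10 that glucocorticoid hormone switches on in many cell types, followed in mouse skin after β-catenin was activated in the epidermis. They are Tsc22d3, Klf9, Sgk1, Zbtb16, Errfi1, Cebpd, Cebpb, Pdk4, Ddit4 and Fkbp5. Each was taken through the probe sets that the array annotation assigns to that symbol alone, 23 in all, of which 20 passed a filter on low signal. All 10 genes had at least 1 passing probe set, 6 had more than 1, and all 10 were tested among 9058 genes, each by its brightest probe set.

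RNA of whole skin was measured on 16 Affymetrix Mouse 430 A arrays at 0, 1 and 7 days of 4-hydroxytamoxifen, a drug that binds the oestrogen receptor. The transgenic mice were of a single line, D2, and carried K14deltaNB-cateninER, an N-terminally shortened and so stabilised β-catenin joined to the hormone-binding part of the oestrogen receptor. It is expressed from the promoter of keratin 14, a keratin of the basal epidermis and outer root sheath, and the fusion protein acts when the drug is bound. There were 2, 3 and 3 transgenic arrays for days 0, 1 and 7, against 3, 3 and 2 arrays of wild-type C57BL/6 skin given the drug for the same times. Mouse ages were not stated in the labels used. With no arrays from vehicle-treated skin, an effect of the drug or of handling cannot be told apart from time. The labels do not tie each array to an animal of its own. The p-values weigh a difference between group means against the spread of samples within groups, which may partly be technique.

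Glucocorticoids such as corticosterone cross the cell membrane and bind the glucocorticoid receptor, which is held in the cytoplasm by Hsp90 and its co-chaperones. The bound receptor moves to the nucleus and sits as a dimer on DNA elements made of inverted copies of a short hexamer, from which it raises transcription of genes such as these. In skin the hormone limits inflammation, restrains keratinocyte proliferation and takes part in barrier formation. Several of the 10 genes also answer to growth factors, the circadian clock, fasting, hypoxia or stress.

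The receptor's element was looked for before each gene's annotated transcription starts. RefSeq promoter windows of build GRCm38.p6, each reaching 250 bases before and 50 after a start, were found for 8 of the 10 genes, 16 windows in all. Sgk1 has 6 of the 16 and Tsc22d3 has 3, so a gene with more windows had more room for a match. No window was used for Cebpd or Zbtb16. The full element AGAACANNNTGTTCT, searched on both strands, was in 3 of 32851 windows of all genes (0.00913%), and 1 of those 3 belongs to Sgk1. Its inner part ACANNNTGT was in 6.85% of all windows and in 2 of the 16, both of Sgk1. The single hexamer AGAACA, which the full element contains on each strand, was in 19.0% of all windows and in 4 of the 16, 3 of Sgk1 and 1 of Tsc22d3. The E-box CACGTG, a motif that clock factors bind, was in 7.15% of all windows and in 2 of the 16, 1 of Sgk1 and 1 of Fkbp5. The windows printed are that of Sgk1 with the full element (chr10:21993640-21993939, plus strand) and those with a match for the genes that passed between genotypes at day 1, Tsc22d3 (chrX:140600473-140600772, minus strand) and Fkbp5 (chr17:28486100-28486399, minus strand). They run 5′ to 3′ on the gene's strand, and capitals mark every match to any of these motifs.
Sgk1: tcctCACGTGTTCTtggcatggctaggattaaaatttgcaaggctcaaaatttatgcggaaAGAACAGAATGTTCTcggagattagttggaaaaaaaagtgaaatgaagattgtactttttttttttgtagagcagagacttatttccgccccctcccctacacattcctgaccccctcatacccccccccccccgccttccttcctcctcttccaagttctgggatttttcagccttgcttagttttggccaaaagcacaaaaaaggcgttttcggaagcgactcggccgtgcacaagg
Tsc22d3: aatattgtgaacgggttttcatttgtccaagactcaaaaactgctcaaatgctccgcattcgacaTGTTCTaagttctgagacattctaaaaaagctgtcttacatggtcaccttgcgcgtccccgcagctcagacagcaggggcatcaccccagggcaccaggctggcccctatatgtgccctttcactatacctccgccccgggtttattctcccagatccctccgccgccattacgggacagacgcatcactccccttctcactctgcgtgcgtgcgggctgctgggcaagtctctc
Fkbp5: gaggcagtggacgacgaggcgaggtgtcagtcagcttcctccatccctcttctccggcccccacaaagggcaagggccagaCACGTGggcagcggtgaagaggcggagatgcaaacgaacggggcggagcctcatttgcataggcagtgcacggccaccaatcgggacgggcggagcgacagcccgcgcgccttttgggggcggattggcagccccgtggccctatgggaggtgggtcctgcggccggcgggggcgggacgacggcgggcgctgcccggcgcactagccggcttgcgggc
In Sgk1 the full element begins at -189 from the start, and an E-box at -246 overlaps a hexamer at -242. The capitals in Tsc22d3 are a hexamer at -185, and those in Fkbp5 are an E-box at -169. A match is a run of letters in these windows, and elements farther away were not searched.

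Values are scaled intensities, that is, the deposited intensities brought to a common 2% trimmed mean, and a change is a log2 difference of scaled intensity + 32 with the standard error of the fit. A gene passed where limma's Benjamini-Hochberg adjusted p over all genes was under 0.05. Replicate arrays correlated across genes at 0.974 to 0.988. Keratinocyte and fibroblast markers were bright on every array, with sums over 9 fibroblast markers between 44919 and 63019. The sums over 8 basal keratinocyte markers were 42591 to 48927 at day 0, 38335 to 43630.0 at day 1 and 33216 to 34210.0 at day 7 in transgenic skin, and 44849 to 48968, 34702 to 40683 and 37109 to 41428 in wild-type skin at the same days.

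At day 1 Tsc22d3 and Fkbp5 were higher in transgenic than in wild-type skin, and at day 7 Cebpb was higher and Klf9, Zbtb16 and Cebpd were lower. At day 1 all 10 differences were positive, with a median of 0.55 beside 0.00 over all genes. The 10 genes were chosen with earlier results of these data known, so counts and medians over them, here and below, are description only. Of the 10, 2 passed as higher and 0 as lower, where 0.707% of all genes passed as higher and 0.596% as lower. At an unadjusted p under 0.05 the same limma fit held 8 of the 10 and 20.1% of all genes. At day 7 the median difference was -0.37 beside 0.01 over all genes. The counts of 1 higher and 3 lower stand beside 19.5% higher and 21.1% lower of all genes, so neither share is far from the background. At day 0, 0 of the 10 passed in limma, 1 had an unadjusted p under 0.05 beside 4.59% of all genes, and 0.011% of all genes were called higher and 0% lower.

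**Figure D1:**
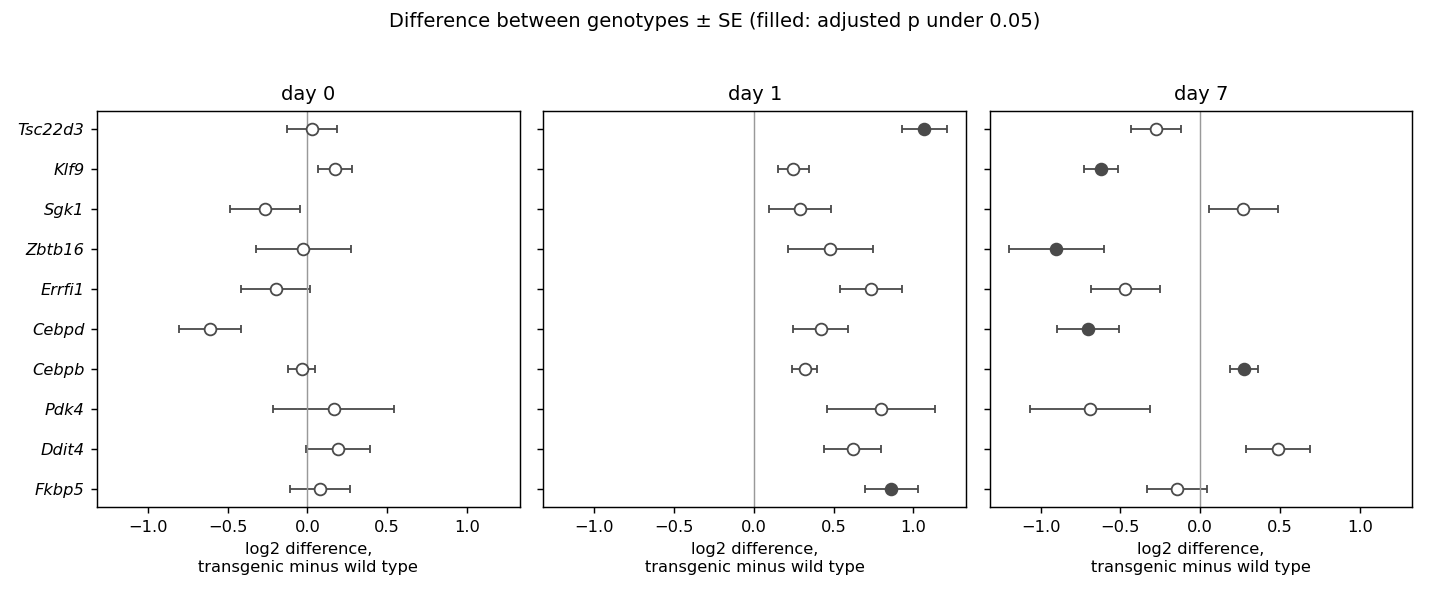
Log2 difference of transgenic minus wild-type skin for each of the 10 genes at days 0, 1 and 7 of 4-hydroxytamoxifen, with the standard error of the fit as bars and filled points for an adjusted p under 0.05. All 10 differences are right of 0 at day 1, 2 of them filled, and 3 of 10 are right of 0 at day 7.

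By day 7 of the drug 5 of the 10, each read by its brightest probe set, had fallen in each genotype. In transgenic skin at day 7 against day 0, Tsc22d3, Klf9, Zbtb16, Pdk4 and Fkbp5 fell and Cebpb rose, 5 and 1 of 10, beside 20.1% lower and 18.6% higher of all genes. Against day 1, transgenic skin at day 7 had 7 of the 10 lower and 1 higher, beside 22.8% and 21.5%. In transgenic skin at day 1 against day 0, Errfi1 and Cebpd rose and 0 fell, beside 6.62% higher and 4.17% lower of all genes. In wild-type skin at day 1 against day 0, Tsc22d3, Klf9, Zbtb16 and Cebpb fell and 0 rose, beside 12.3% lower and 10.1% higher. In wild-type skin at day 7 against day 0, Tsc22d3, Klf9, Zbtb16, Pdk4 and Fkbp5 fell and 0 rose, beside 5.98% and 5.49%. The dimmer probe set of Fkbp5 did not share that fall. In wild-type skin at day 7 against day 1, Cebpb was higher and Tsc22d3 lower, beside 1.67% and 1.44%. Basal keratinocyte markers moved over the same times: 6 of 8 were lower and 0 higher in wild-type skin at day 1 against day 0, with a median of -0.37, and 5 of 8 were lower and 0 higher in transgenic skin at day 7 against day 0, with a median of -0.55. At day 7 against day 0 in wild-type skin 2 of 8 were lower. Their part in the falls of the 10 genes was not tested. Sgk1 and Ddit4 passed in none of the 11 comparisons.

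**Figure D2:**
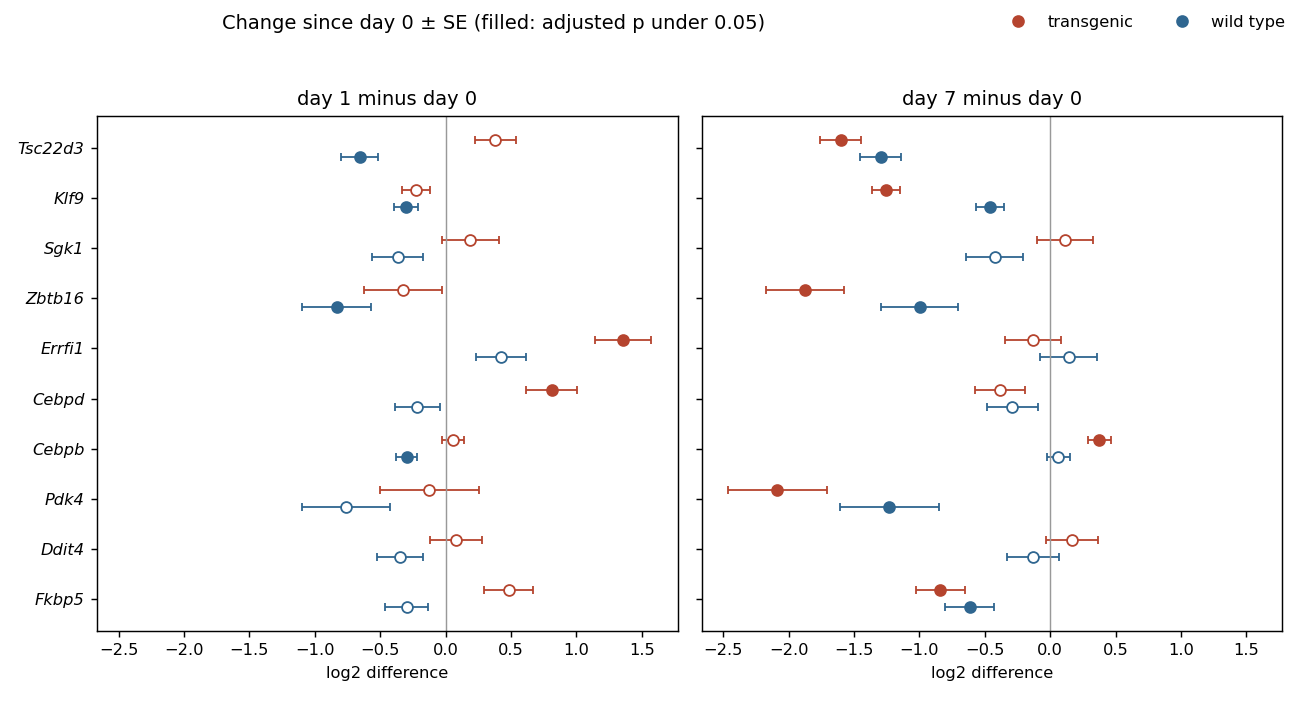
Log2 change since day 0 of each of the 10 genes at day 1 and at day 7 of 4-hydroxytamoxifen, in transgenic and wild-type skin, with the standard error of the fit and filled points for an adjusted p under 0.05. At day 1 the filled points are Errfi1 and Cebpd right of 0 in transgenic skin and Tsc22d3, Klf9, Zbtb16 and Cebpb left of 0 in wild-type skin.

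Tsc22d3 encodes GILZ, a leucine zipper protein that carries part of the anti-inflammatory action of the hormone. Its scaled intensity in transgenic skin was 2523 and 2891 at day 0, 3563, 2736 and 4504 at day 1 and 911, 831 and 864 at day 7. In wild-type skin it was 2385, 2506 and 3088 at day 0, 1749, 1589 and 1658 at day 1 and 1012 and 1108 at day 7. At day 1 every transgenic array lay above every wild-type array, and at day 7 every transgenic array lay below. Between genotypes Tsc22d3 was higher by 1.07 ± 0.14 (adjusted p = 0.00215) at day 1, 2.10-fold, and differed by -0.28 ± 0.16 (adjusted p = 0.173) at day 7. In wild-type skin against day 0 it fell by 0.66 ± 0.14 (adjusted p = 0.00412) at day 1 and fell by 1.29 ± 0.16 (adjusted p = 0.000153) at day 7. In transgenic skin the change at day 1 was 0.38 ± 0.16 (adjusted p = 0.13), or 0.56 (adjusted p = 0.022) without replicate 2 of transgenic day 1, and at day 7 it fell by 1.60 ± 0.16 (adjusted p = 1.25e-06) against day 0. The wild-type fall at day 7 against day 1, -0.64 ± 0.16 (adjusted p = 0.0374), was lost without any 1 of 6 arrays: replicate 1 of transgenic day 7, the 3 of wild-type day 1 or either of wild-type day 7, with log2 differences of -0.70 to -0.57 and adjusted p of 0.0503 to 0.31.

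Tsc22d3 had a pair of other passing probe sets. In the fit over all probe sets the first was higher in transgenic skin at day 1 by 0.83 ± 0.16 (adjusted p = 0.0303). The remaining one, with group means between 215 and 274, differed by 0.15 ± 0.13 (adjusted p = 0.549). The mean of all 3 gave 0.68 (adjusted p = 0.0294) at day 1.

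Fkbp5 encodes FKBP51, a co-chaperone that the hormone induces and that in turn lowers the receptor's affinity for it. On transgenic arrays it read 1015 and 1645 at day 0, 1690.0, 1812 and 1970.5 at day 1 and 750.0, 579 and 819 at day 7. Wild-type arrays read 979, 1460.0 and 1275 at day 0, 920.1, 1022 and 1025 at day 1 and 767 and 808 at day 7. The 3 transgenic arrays of day 1 were brighter than all others. Fkbp5 was higher in transgenic skin at day 1 by 0.86 ± 0.17 (adjusted p = 0.0267), 1.82-fold, and differed by -0.15 ± 0.19 (adjusted p = 0.564) at day 7. The day 1 call was lost without any 1 of 4 arrays, replicates 1 or 3 of transgenic day 1 or replicates 1 or 2 of wild-type day 1, with log2 differences of 0.80 to 0.91 and adjusted p of 0.0557 to 0.1. The dimmer probe set of Fkbp5 differed by 0.00 ± 0.18 (adjusted p = 0.997) at day 1, and the mean of both gave 0.43 (adjusted p = 0.126). In transgenic skin at day 7 it fell by 1.32 ± 0.17 (adjusted p = 1.56e-05) against day 1 and fell by 0.84 ± 0.19 (adjusted p = 0.00212) against day 0, the last of which was -0.50 (adjusted p = 0.0705) without replicate 2 of transgenic day 0. The change in transgenic skin at day 1, 0.48 ± 0.19 (adjusted p = 0.107), was 0.82 (adjusted p = 0.0385) without that same array. In wild-type skin it fell by 0.61 ± 0.19 (adjusted p = 0.0443) at day 7 against day 0. That call was lost without any 1 of 10 arrays: replicates 1 or 2 of transgenic day 1, replicate 1 of transgenic day 7, replicates 2 or 3 of wild-type day 0, or any of wild-type days 1 and 7, with log2 differences of -0.65 to -0.49 and adjusted p of 0.05 to 0.223. The dimmer probe set did not share this fall: in wild-type skin it averaged 337 at day 0, 485 at day 1 and 389 at day 7.

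**Figure D3:**
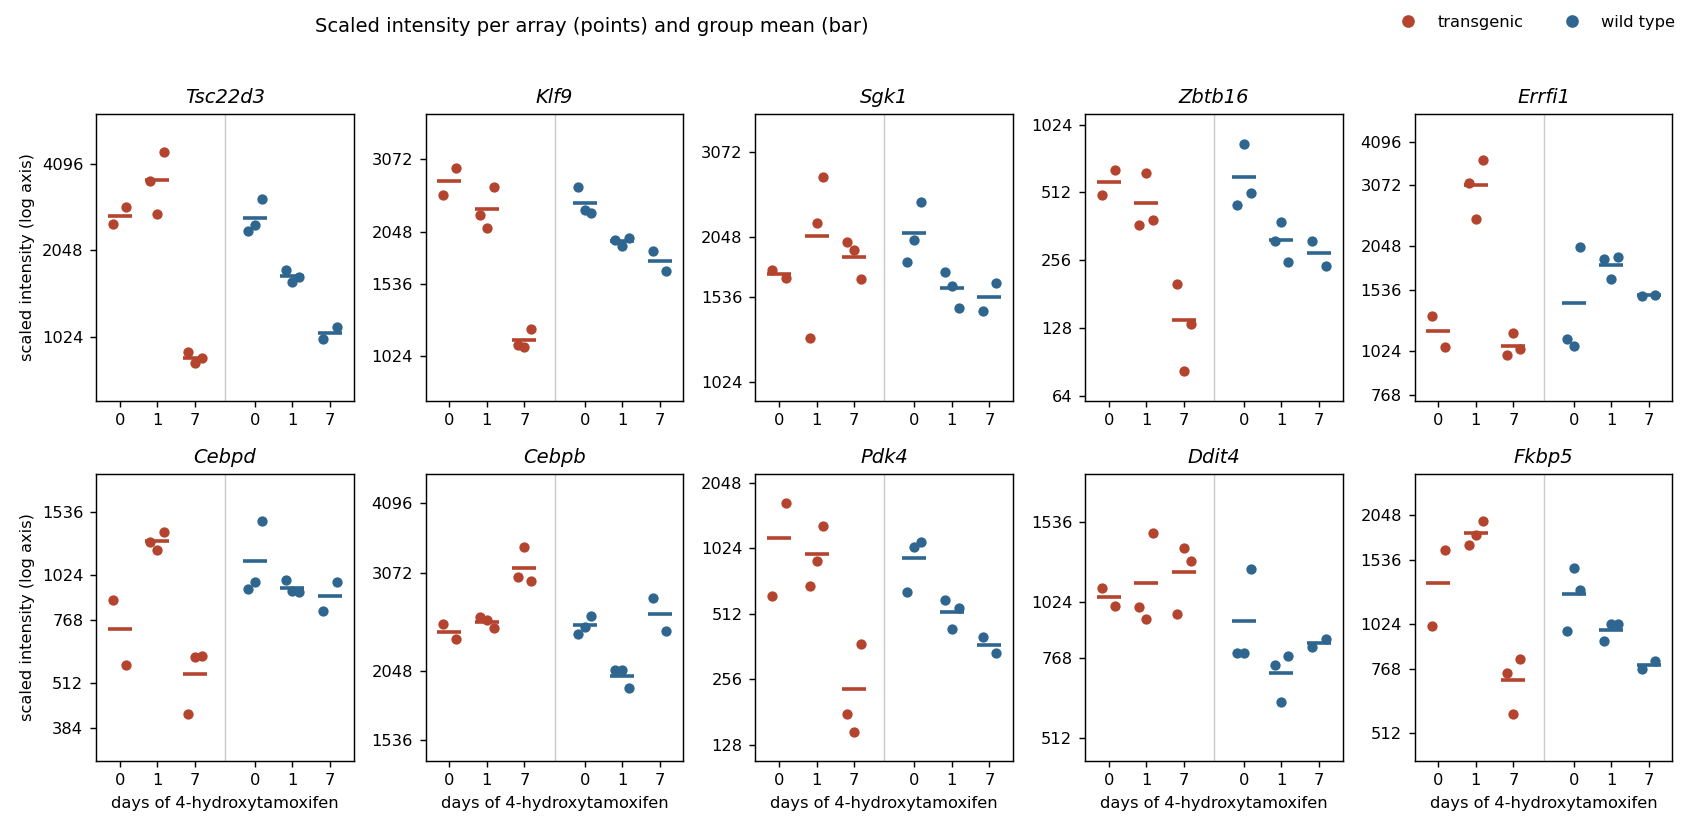
Scaled intensity of each of the 10 genes on each of the 16 arrays (points, log axis) with group means (bars), at 0, 1 and 7 days of 4-hydroxytamoxifen, transgenic skin left of wild-type skin. At day 1 Tsc22d3 lies between 2736 and 4504 in transgenic skin and between 1589 and 1749 in wild-type skin.

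Klf9 encodes a zinc finger repressor that the hormone induces in keratinocytes and that restrains their proliferation. Transgenic skin gave scaled intensities of 2520.1 and 2923 at day 0, 2251, 2098 and 2634 at day 1 and 1088, 1079 and 1194 at day 7. The wild-type values were 2630.2, 2321 and 2282 at day 0, 1959, 1893 and 1985 at day 1 and 1841 and 1646 at day 7. The transgenic arrays of day 7 lay below all others, and those of day 1 above the wild-type arrays of day 1. Klf9 was lower in transgenic skin at day 7 (log2 difference -0.62 ± 0.11, adjusted p = 0.000275) and differed by 0.25 ± 0.10 (adjusted p = 0.164) at day 1. At day 7 against day 0 it fell by 1.25 ± 0.11 (adjusted p = 3.08e-07) in transgenic skin and fell by 0.46 ± 0.11 (adjusted p = 0.0113) in wild-type skin. Those changes differed between genotypes by -0.79 ± 0.15 (adjusted p = 0.00158). Klf9 was the single one of the 10 to pass there, beside 12.1% higher and 11.7% lower of all genes. The wild-type change at day 7 was -0.38 (adjusted p = 0.118) without replicate 2 of wild-type day 7. In wild-type skin at day 1 it fell by 0.30 ± 0.10 (adjusted p = 0.0322), a call lost without replicates 1 or 2 of wild-type day 0 or any 1 of the 3 arrays of wild-type day 1, with log2 differences of -0.33 to -0.24 and adjusted p of 0.0573 to 0.118. In the fit over all probe sets, brighter ones of Klf9 differed at day 7 by -0.78 ± 0.18 (adjusted p = 0.00366) and -0.72 ± 0.12 (adjusted p = 0.000246). The dim ones, with group means between 62.9 and 145, differed by -0.10 ± 0.15 (adjusted p = 0.652) and -0.35 ± 0.32 (adjusted p = 0.426).

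Zbtb16 encodes PLZF, a zinc finger protein strongly induced by the hormone in human cells. Its scaled intensity in transgenic skin was 501 and 642 at day 0, 366, 624 and 386 at day 1 and 200.4, 81.9 and 133 at day 7. Wild-type skin gave 450.1, 843 and 506 at day 0, 312, 379 and 252 at day 1 and 311 and 240.1 at day 7. The genotypes overlapped at days 0 and 1, and at day 7 all 3 transgenic arrays lay below both wild-type arrays. Those transgenic values are near the level of the filter on low signal, 101 to 132 by array. The other probe set of Zbtb16 did not pass that filter, and averaged 103 in transgenic and 86.8 in wild-type skin at day 7. Zbtb16 was lower in transgenic skin at day 7 (log2 difference -0.90 ± 0.30, adjusted p = 0.0236) and differed by 0.48 ± 0.27 (adjusted p = 0.324) at day 1. The day 7 call was lost without replicate 2 of transgenic day 7 or replicate 1 of wild-type day 7, with log2 differences of -0.73 to -0.64 and adjusted p of 0.105 to 0.169. At day 7 against day 0 it fell by 1.87 ± 0.30 (adjusted p = 0.000131) in transgenic skin and fell by 1.00 ± 0.30 (adjusted p = 0.0404) in wild-type skin, and at day 1 it fell by 0.83 ± 0.27 (adjusted p = 0.0341) in wild-type skin. The wild-type call at day 7 was lost without replicates 2 or 3 of wild-type day 0 or either array of wild-type day 7, with log2 differences of -1.17 to -0.74 and adjusted p of 0.0537 to 0.222. The one at day 1 was lost without replicate 2 of wild-type day 0 or replicates 1 or 3 of wild-type day 1, with log2 differences of -0.84 to -0.57 and adjusted p of 0.0848 to 0.172. The changes at day 7 differed between genotypes by -0.88 ± 0.42 (adjusted p = 0.144).

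Cebpb and Cebpd encode related leucine zipper factors that the hormone and inflammatory cytokines induce, and they parted at day 7. The scaled intensity of Cebpb was 2483 and 2335 at day 0, 2554, 2522 and 2442 at day 1 and 3022, 3419.7 and 2968 at day 7 in transgenic skin. In wild-type skin it was 2388, 2454 and 2569 at day 0, 2053, 2055 and 1904 at day 1 and 2764 and 2409 at day 7. The 3 transgenic arrays of day 7 were brighter than all others. Cebpb was higher in transgenic skin at day 7 by 0.28 ± 0.09 (adjusted p = 0.0193), and differed by 0.32 ± 0.08 (adjusted p = 0.0582) at day 1. The day 7 call was lost without replicate 2 of either genotype's day 7, with log2 differences of 0.18 to 0.21 and adjusted p of 0.0886 to 0.229. In transgenic skin at day 7 Cebpb rose by 0.37 ± 0.09 (adjusted p = 0.00297) against day 0 and by 0.32 ± 0.08 (adjusted p = 0.00383) against day 1. In wild-type skin it fell by 0.30 ± 0.08 (adjusted p = 0.013) at day 1 and was higher at day 7 than at day 1 by 0.36 ± 0.09 (adjusted p = 0.0347), the last of which was lost without any 1 of the 3 arrays of wild-type day 1 or replicate 1 of wild-type day 7, with log2 differences of 0.26 to 0.38 and adjusted p of 0.0596 to 0.408. The dimmer probe set of Cebpb was higher in transgenic skin at day 7 by 0.50 ± 0.13 (adjusted p = 0.00712), and its change at day 7 differed between genotypes by 0.60 ± 0.18 (adjusted p = 0.0304), where the brighter one gave 0.31 ± 0.12 (adjusted p = 0.0787).

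The scaled intensity of Cebpd was 872 and 576 at day 0, 1265, 1203 and 1351 at day 1 and 419, 604 and 607 at day 7 in transgenic skin. Wild-type arrays read 934, 981 and 1447 at day 0, 991, 924 and 915 at day 1 and 814 and 981 at day 7. Transgenic arrays lay below the wild-type arrays at day 0, above them at day 1 and below them at day 7, with no overlap. At day 0 the difference was -0.61 ± 0.19 (adjusted p = 0.994) with an unadjusted p of 0.0066, the single one of the 10 under 0.05. At day 1 it was 0.42 ± 0.17 (adjusted p = 0.194). At day 7 Cebpd was lower in transgenic skin (log2 difference -0.70 ± 0.19, adjusted p = 0.009), or -0.57 (adjusted p = 0.0977) without replicate 2 of wild-type day 7. In transgenic skin it rose by 0.81 ± 0.19 (adjusted p = 0.0155) at day 1 against day 0, or 0.53 (adjusted p = 0.237) without replicate 2 of transgenic day 0, and it fell by 1.20 ± 0.17 (adjusted p = 5.91e-05) at day 7 against day 1. The transgenic change at day 7 against day 0, -0.38 ± 0.19 (adjusted p = 0.134), was -0.67 (adjusted p = 0.0357) without replicate 2 of transgenic day 0. The other probe set of Cebpd was dim, with group means between 137 and 213, and did not show the same differences. In the fit over all probe sets it gave 0.26 ± 0.21 (adjusted p = 0.977) between genotypes at day 0, 0.01 ± 0.19 (adjusted p = 0.975) at day 1 and -0.47 ± 0.21 (adjusted p = 0.0963) at day 7, and 0.13 ± 0.21 (adjusted p = 0.737) in transgenic skin at day 1 against day 0. With the mean of both, the transgenic rise at day 1 was 0.47 (adjusted p = 0.0833), and the difference at day 7 was -0.58 (adjusted p = 0.0121).

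Errfi1 encodes MIG6, a feedback inhibitor of the epidermal growth factor receptor. On transgenic arrays it read 1288 and 1049.6 at day 0, 3115, 2459 and 3637 at day 1 and 995, 1156 and 1036 at day 7. The wild-type values were 1109, 1058 and 2044 at day 0, 1881, 1654 and 1908 at day 1 and 1477 and 1485 at day 7. The 3 transgenic arrays of day 1 were brighter than all others, and replicate 3 of wild-type day 0 stood well above the others of its group. In transgenic skin Errfi1 rose by 1.36 ± 0.22 (adjusted p = 0.00118) at day 1 against day 0, 2.56-fold, and it fell by 1.49 ± 0.19 (adjusted p = 2.06e-05) at day 7 against day 1. In wild-type skin the change at day 1 was 0.43 ± 0.19 (adjusted p = 0.124), or 0.72 (adjusted p = 0.00375) without replicate 3 of wild-type day 0. Between genotypes the difference was 0.73 ± 0.19 (adjusted p = 0.0704) at day 1 and -0.47 ± 0.22 (adjusted p = 0.0951) at day 7. Without that same array, which is in neither group compared, they were 0.73 (adjusted p = 0.021) and -0.47 (adjusted p = 0.0143). The other probe set of Errfi1 rose in transgenic skin at day 1 by 1.47 ± 0.28 (adjusted p = 0.00476) and differed between genotypes by 0.68 ± 0.25 (adjusted p = 0.147).

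Ddit4 encodes REDD1, an inhibitor of mTORC1 that hypoxia and the hormone induce. Transgenic skin gave scaled intensities of 1095 and 1000.0 at day 0, 996, 939 and 1448 at day 1 and 962, 1348 and 1257 at day 7. Wild-type skin gave 790.2, 789.7 and 1212 at day 0, 743, 617 and 776 at day 1 and 815 and 845 at day 7. Transgenic arrays lay above wild-type arrays at days 1 and 7, and the differences of 0.62 ± 0.18 (adjusted p = 0.0848) and 0.49 ± 0.20 (adjusted p = 0.0616) did not pass. The day 7 difference passed without replicate 3 of transgenic day 1, 0.49 (adjusted p = 0.0343), replicate 1 of transgenic day 7, 0.63 (adjusted p = 0.029), or replicate 3 of wild-type day 0, 0.49 (adjusted p = 0.0326).

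Sgk1, with the full element printed above in 1 of its 6 windows, encodes a kinase that regulates sodium channels. Its scaled intensity in transgenic skin was 1747 and 1684 at day 0, 1263, 2187 and 2721 at day 1 and 1995, 1918 and 1674 at day 7. In wild-type skin it was 1817, 2012 and 2420.2 at day 0, 1732, 1622 and 1454 at day 1 and 1434 and 1640.0 at day 7. The transgenic arrays of day 1 held both the lowest and the highest of the 16 values. The difference between genotypes was -0.27 ± 0.22 (adjusted p = 0.994) at day 0, 0.29 ± 0.19 (adjusted p = 0.423) at day 1 and 0.27 ± 0.22 (adjusted p = 0.342) at day 7. Without replicate 1 of transgenic day 1, the lowest, the change in transgenic skin at day 1 was 0.50 (adjusted p = 0.0495), where all arrays gave 0.19 ± 0.22 (adjusted p = 0.617). Without it Sgk1 also passed in transgenic skin at day 7 against day 1, -0.39 (adjusted p = 0.0298), in wild-type skin at day 1 against day 0, -0.37 (adjusted p = 0.0368), and in how the change at day 7 differed between genotypes, 0.54 (adjusted p = 0.049).

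Pdk4 encodes a mitochondrial kinase that keeps pyruvate out of the citric acid cycle in fasting. On transgenic arrays it read 619 and 1659 at day 0, 689.9, 899 and 1293 at day 1 and 178, 146 and 371 at day 7. Wild-type arrays read 645, 1039.7 and 1098 at day 0, 590.5, 437 and 547 at day 1 and 400.4 and 337 at day 7. The pair of transgenic day 0 arrays lay far apart, and at day 1 every transgenic array lay above every wild-type array. At day 7 against day 0 Pdk4 fell by 2.09 ± 0.38 (adjusted p = 0.000426) in transgenic skin and fell by 1.23 ± 0.38 (adjusted p = 0.0469) in wild-type skin. The wild-type call was lost without any 1 of 9 arrays: replicate 2 of transgenic day 1, replicate 1 of transgenic day 7, replicates 2 or 3 of wild-type day 0, or any of wild-type days 1 and 7, with log2 differences of -1.34 to -1.09 and adjusted p of 0.0528 to 0.204. Between genotypes it differed by 0.80 ± 0.34 (adjusted p = 0.2) at day 1 and -0.69 ± 0.38 (adjusted p = 0.158) at day 7, or by -1.05 (adjusted p = 0.0308) at day 7 without replicate 3 of transgenic day 7. The change at day 7 differed between genotypes by -0.86 ± 0.53 (adjusted p = 0.266), or by -1.55 (adjusted p = 0.0491) without replicate 1 of transgenic day 0.

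Whether the genotypes differed in their change over time was tested directly. For the change at day 1 all 10 differences were positive, with a median of 0.59 beside 0.01 over all genes, and 0 passed in limma. Over all genes 0.11% passed as higher and 0.177% as lower. At an unadjusted p under 0.05 there were 5 of the 10, beside 15.3% of all genes. The smallest p-values were those of Tsc22d3, 1.04 ± 0.21 (adjusted p = 0.0529), Cebpd, 1.03 ± 0.26 (adjusted p = 0.124), and Errfi1, 0.93 ± 0.29 (adjusted p = 0.172). The dim probe set of Cebpd gave -0.25 ± 0.28 (adjusted p = 0.691). Tsc22d3 lay close to the threshold: it was 1.04 (adjusted p = 0.049) with all probe sets tested, and 1.22 (adjusted p = 0.0163) without replicate 2 of transgenic day 1. For the change at day 7, 1 of 10 passed as lower, Klf9, and 0 as higher, beside 11.7% and 12.1% of all genes, with a median of -0.25. Both comparisons share the day 0 arrays.

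The 10 genes were also averaged within each array, as deviations from each gene's mean over all 16. The means were 0.12 and 0.28 on transgenic arrays of day 0, 0.32, 0.41 and 0.67 at day 1 and -0.58, -0.63 and -0.45 at day 7. On wild-type arrays they were 0.04, 0.26 and 0.45 at day 0, -0.07, -0.15 and -0.13 at day 1 and -0.26 and -0.28 at day 7. The genotypes overlapped at day 0 and were apart at days 1 and 7, in opposite directions. Replicate 3 of transgenic day 1 was the highest of its group for 8 of the 10 genes, and replicate 3 of wild-type day 0 for 7. Without replicate 3 of transgenic day 1 the count passing between genotypes at day 1 was 1, and without replicate 3 of wild-type day 0 it was 3.

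**Figure D4:**
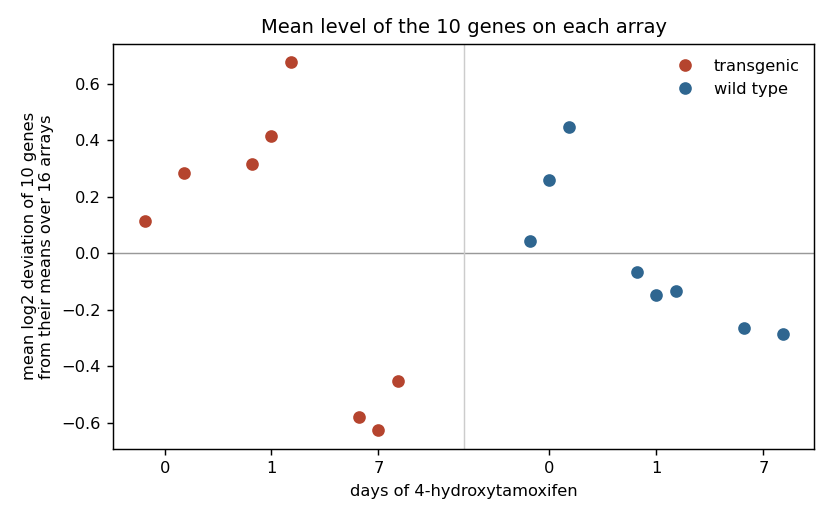
Mean log2 deviation of the 10 genes from their means over 16 arrays, 1 point per array, at 0, 1 and 7 days of 4-hydroxytamoxifen, transgenic skin left of wild-type skin. The transgenic arrays of day 1 lie between 0.32 and 0.67, against -0.15 to -0.07 on wild-type arrays, and those of day 7 lie lowest, at -0.63 to -0.45.

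Across the 6 group means the 10 genes followed each other in part. Of their 45 pairs 33 had a positive Pearson r, with a median of 0.39, a description over 6 points that come from the same arrays. Genes of like pattern were sought among 1393 genes whose group means span at least 1 log2 unit. Those nearest to Tsc22d3 were Ccn2, a matricellular protein, at 0.98, Fkbp5 at 0.97 and Tle4, a corepressor, at 0.97. Those nearest to Fkbp5 were Hsd11b1, the enzyme that regenerates active hormone, at 0.98, Tsc22d3 at 0.97 and Ccn2 at 0.97. Klf9 was followed by Kif21a at 1.00, Aldh3a1 at 0.99 and Aqp4 at 0.99, and Pdk4 by Elovl1 at 0.99, Adgrv1 at 0.99 and Aldh3a1 at 0.98. Zbtb16 was followed by Cysrt1 at 1.00, Ereg at 1.00 and Ptpn21 at 0.99, and Cebpb by Sfn at 1.00, Bcl11b at 0.98 and Bok at 0.96. Errfi1 was nearest to Msr1 and Chil3, which macrophages express, at 0.93 and 0.93, and to P4ha2 at 0.92. Cebpd was nearest to Ccn5 at 0.96, Pde2a at 0.94 and Pmp22 at 0.92. The r of Ddit4 reached 0.91 with Mad1l1, 0.88 with Tenm2 and 0.88 with AI661453, and that of Sgk1 0.81 with Hip1r, 0.78 with Peli2 and 0.77 with Rfx2.

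Genes for the receptor, its chaperones and the enzymes that set its hormone supply were counted between genotypes, and at day 7 Nr3c1 and H6pd were lower in transgenic skin while Hsd11b2 and 5 chaperone genes were higher. Of 11 measured, 0 passed at day 1 in limma, beside 0.707% higher and 0.596% lower of all genes. At an unadjusted p under 0.05 in limma there were 3, beside 20.1% of all genes. At day 7, 6 were higher and 2 lower in transgenic skin, beside 19.5% and 21.1% of all genes, with a median of 0.39. Nr3c1, the receptor gene, averaged 1307 ± 121 in transgenic skin and 2180.5 ± 61.6 in wild-type skin at day 7 (SD, n = 3 and 2), and was lower in transgenic skin (log2 difference -0.73 ± 0.12, adjusted p = 0.000203). Hsd11b2, the enzyme that inactivates the hormone, averaged 548 ± 37.7 in transgenic skin and 62.8 ± 11.1 in wild-type skin. On the wild-type arrays it lay below the filter level, which was 101 to 132 by array, as it did on every array outside transgenic day 7. It was therefore tested only through the group where it was high, and its call among the 6 higher carries no separate weight. With that level in place of the wild-type values it was at least 4.62-fold higher in transgenic skin, a bound that was not itself tested. H6pd, which supplies the cofactor with which Hsd11b1 regenerates the hormone, averaged 155 ± 45.3 in transgenic skin and 322 ± 14 in wild-type skin, lower in transgenic skin (log2 difference -0.95 ± 0.17, adjusted p = 0.000486). The changes at day 7 since day 0 differed between genotypes by -0.78 ± 0.17 (adjusted p = 0.00383) for Nr3c1 and -0.92 ± 0.24 (adjusted p = 0.0138) for H6pd.

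Hsd11b1 averaged 506 ± 77.7 in transgenic skin and 347 ± 101 in wild-type skin at day 1 (SD, n = 3 each), a difference of 0.53 ± 0.23 (adjusted p = 0.206). In transgenic skin it fell by 1.01 ± 0.23 (adjusted p = 0.00224) at day 7 against day 1. The chaperone genes higher in transgenic skin at day 7 were Fkbp4, whose product competes with FKBP51 on the receptor complex, by 0.56 ± 0.10 (adjusted p = 0.000316), Hsp90aa1 by 0.61 ± 0.11 (adjusted p = 0.000557) and Dnajb1 by 0.47 ± 0.12 (adjusted p = 0.00464). Stip1 and Hspa8 were higher by 0.41 ± 0.12 (adjusted p = 0.0114) and 0.39 ± 0.14 (adjusted p = 0.0387), and Bag1 and the coactivator gene Ncoa1 differed by -0.25 ± 0.11 (adjusted p = 0.0696) and -0.21 ± 0.11 (adjusted p = 0.14).

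**Figure D5:**
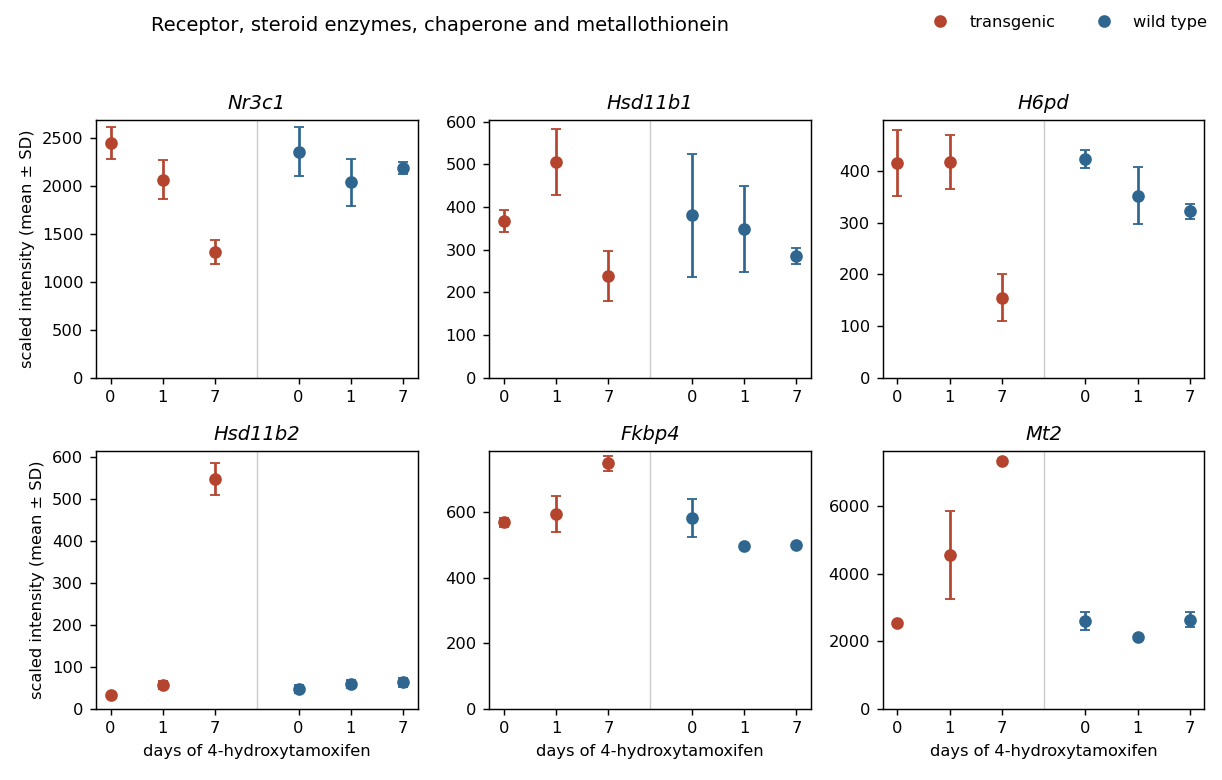
Mean scaled intensity with SD of the receptor gene Nr3c1, the steroid enzyme genes Hsd11b1, H6pd and Hsd11b2, the co-chaperone gene Fkbp4 and the metallothionein gene Mt2 at 0, 1 and 7 days of 4-hydroxytamoxifen, transgenic skin left of wild-type skin (n = 2 or 3 arrays). At day 7 Hsd11b2 averages 548 in transgenic skin and 62.8 in wild-type skin, and Nr3c1 1307 and 2180.5 in the same order.

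Cell type markers moved at day 7 beside these values and those of the 10 genes. Of all genes 19.5% were higher and 21.1% lower in transgenic skin at that day. Between genotypes 10 of 10 hair follicle markers were higher in transgenic skin, with sums of 32271 to 47069 against 709 to 715 in wild-type skin. Skeletal muscle markers were lower in 10 of 10, with sums of 54089 to 63646 against 89906 to 100380.0. Macrophage markers were lower in 9 of 10, with 17022 to 28886 against 39418 to 40137, and fat cell markers in 4 of 8, with 14781 to 16865 against 23968 to 29072. Melanocyte markers were higher in 5 of 5, with sums of 7552 to 8845 in transgenic skin against 1539 to 1617 in wild-type skin. Hair follicle markers such as Krt25, Krt35 and Tchh, and Tyr of the melanocytes, lay below the filter level on every array outside transgenic day 7. Such markers were tested only through the group where they were high, so their calls carry no separate weight. Endothelial markers were lower in 6 of 7, with 1355 to 1763 against 2419.8 to 2573, and mast cell markers in 4 of 5 and higher in 1, with 1661 to 2198 against 2378 to 2786. In basal keratinocytes 4 of 8 markers were lower and 1 higher, in differentiated keratinocytes 4 of 9 and 1, and in fibroblasts 4 of 9 and 1. T cell, neutrophil and Schwann cell markers were lower in 2 of 4, 2 of 3 and 2 of 3, and sebaceous gland markers in 1 of 4. The last of these counts is near the share over all genes. These counts are of measured markers, which in some lists were fewer than those listed, such as 4 of 8 for the sebaceous gland and 4 of 9 for T cells. In whole skin, fewer cells of a type and less RNA per cell cannot be told apart, and the part of these markers' cells in the day 7 values was not tested.

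At day 1 fewer markers differed between genotypes, where 0.707% of all genes were higher and 0.596% lower. Of 9 markers of differentiated keratinocytes 1, Cdsn, was higher in transgenic skin, by 0.51 ± 0.11 (adjusted p = 0.0359). Of the hair follicle, fat cell, sebaceous gland and melanocyte markers 0 passed in limma and 0 had an unadjusted p under 0.05, beside 20.1% of all genes. Sums over the hair follicle markers were 608 to 767 in transgenic skin and 689.7 to 798 in wild-type skin. Macrophage markers rose at day 1 against day 0 in both genotypes, 8 of 10 in transgenic skin, with sums of 26074 to 38261 against 16902 to 19373, and 9 of 10 in wild-type skin, with 34762 to 38869 against 17662 to 20992. Over that day 6.62% of all genes passed as higher in transgenic skin and 10.1% in wild-type skin. Errfi1 and Cebpd rose in transgenic skin over the same day, and the part of macrophages in that was not tested.

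Other genes known to be induced by the hormone were counted alongside. Of 26 measured, 3 were higher in transgenic skin at day 1 and 0 lower, beside 0.707% and 0.596% of all genes. Of the differences 20 were positive, and the median was 0.16 beside 0.00 over all genes. The 3 were the metallothioneins Mt2, by 1.05 ± 0.14 (adjusted p = 0.00215), and Mt1, by 0.94 ± 0.13 (adjusted p = 0.00422), which bind metals and answer to them too, and Dusp1, a phosphatase that silences MAP kinases, by 0.50 ± 0.10 (adjusted p = 0.0331). Mt2 was the 1 list member whose change at day 1 differed between genotypes, by 1.07 ± 0.20 (adjusted p = 0.0379). At day 7 the metallothioneins were higher in transgenic skin, Mt2 by 1.46 ± 0.15 (adjusted p = 3.21e-06) and Mt1 by 1.50 ± 0.15 (adjusted p = 1.99e-06), while Dusp1 was lower (log2 difference -1.02 ± 0.11, adjusted p = 6.70e-06). In all 2 of the 26 were higher and 6 lower at day 7, where 19.5% and 21.1% of all genes passed, so neither share lies far above the background.

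Of 18 listed genes that the hormone is known to hold down in inflamed tissue and epidermis, 13 were measured. Beside 0.707% higher and 0.596% lower of all genes at day 1, 2 were higher in transgenic skin and 0 lower, with a median of -0.04. They were the keratins of activated epidermis Krt16, by 1.28 ± 0.20 (adjusted p = 0.00953), and Krt6b (adjusted p = 0.0381 in limma on the measured values). With the filter level in place of wild-type values that all lay below it, Krt6b was at least 1.70-fold higher, a bound not itself tested. At day 7, 2 were higher and 8 lower, beside 19.5% and 21.1% of all genes, and the change since day 0 differed between genotypes by -1.94 ± 0.32 (adjusted p = 0.000632) for Krt16.

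Genes of other pathways that reach the 10 were counted in the same way. Of 15 clock genes, Nfil3, a repressor of clock output, was higher in transgenic skin at day 1 (adjusted p = 0.0369 in limma on the measured values). None was lower, and of all genes 0.707% were higher and 0.596% lower. Over the filter level, which no wild-type array of that day reached, Nfil3 was at least 1.24-fold higher, a bound not itself tested. At day 7 against day 0, 10 of them were lower and 1 higher in transgenic skin, beside 20.1% and 18.6% of all genes, Dbp by -3.04 ± 0.20 (adjusted p = 2.85e-08) and Per2 at least 3.73-fold (adjusted p = 3.10e-08). In wild-type skin 8 were lower and 2 higher, beside 5.98% and 5.49%, Per2 at least 4.32-fold (adjusted p = 1.35e-07). On all day 7 arrays Per2 lay below the filter level. Both its folds are bounds with that level in place, and its p-values are limma's on the measured values. The labels used give no hour of sampling, and the part of the clock in the falls of Klf9, Tsc22d3 and the others at day 7 was not tested.

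Of 14 genes of PPAR signalling and fatty acid use, Pdk4 included, Slc25a20, the mitochondrial acylcarnitine carrier, was higher in transgenic skin at day 1 by 0.48 ± 0.10 (adjusted p = 0.0381) and 0 were lower. Of all genes 0.707% were higher and 0.596% lower there. At day 7 against day 0, 9 were lower and 1 higher in transgenic skin, again beside 20.1% and 18.6% of all genes, while in wild-type skin Pdk4 was the 1 gene called. Fat cell markers fell over the same days in 6 of 8 in transgenic skin and 1 of 8 in wild-type skin, where 5.98% of all genes were lower. Of 19 immediate early genes 0 passed between genotypes at day 1 in limma, with 8 at an unadjusted p under 0.05, beside 20.1% of all genes. Of 17 genes of hypoxia and the unfolded protein response 0 passed at day 1, with 5 at an unadjusted p under 0.05. At day 7, 8 of them were lower in transgenic skin and 1 higher, beside 21.1% and 19.5% of all genes. Bnip3, a mitophagy receptor, differed by -1.12 ± 0.14 (adjusted p = 1.68e-05).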

How the data were processed

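Whole-skin RNA of 16 samples in 6 groups was measured on Affymetrix Mouse 430 A arrays. The deposited table gives 1 linear intensity per probe set and array, and the software and scaling behind those intensities are not given in the sources used here. Of 22690 probe sets 64 were controls, 20380 had 1 gene symbol, 691 had several and 1555 were not listed in the annotation. Each array was scaled to a common 2% trimmed mean (trimmed means 358 to 546, factors 0.825 to 1.26) and transformed to log2(intensity + 32). Probe sets above the array's 40th percentile on at least 2 arrays were kept, 15058 in all, and each of 9058 genes was represented by its brightest.

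limma 3.58.1 in R 4.3.3 fitted 6 group means to all 16 arrays (10 residual degrees of freedom, variance trend), with 11 two-sided contrasts and Benjamini-Hochberg adjustment over all genes. The steps were tested on simulated data. Figures and summaries used Python 3.11.15, pandas 2.3.3 and matplotlib 3.10.9. Alternatives were added values of 8 and 128, other filters, probe set choices and normalizations, no variance trend, only the groups compared, the replicate number as a block, and each array left out.

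The 10 genes and the lists were chosen with earlier results of these data known. Named genes are the 10, the whole receptor list, up to 3 genes of smallest p per other list and comparison, and the 3 most alike in pattern. Markers named are those that passed.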

Additional observations from a re-analysis of the deposited data

Results flagged for a closer look

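Klf9 was the 1 gene of the 10 whose change at day 7 since day 0 differed between genotypes by a test of the difference itself, by -0.79 ± 0.15 (adjusted p = 0.00158) in limma. Of all genes 12.1% passed as higher and 11.7% as lower in that test, so 1 of 10 is near the background. Klf9 fell by 1.25 ± 0.11 (adjusted p = 3.08e-07) in transgenic skin and fell by 0.46 ± 0.11 (adjusted p = 0.0113) in wild-type skin. With no further scaling the difference was -0.90 (adjusted p = 0.0551).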

How the results depend on the processing

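Leaving out 1 array at a time, the number of the 10 genes passing ranged over 0 to 0 between genotypes at day 0 (0 with all arrays), 1 to 3 between genotypes at day 1 (2 with all arrays), 2 to 6 between genotypes at day 7 (4 with all arrays), 2 to 3 in transgenic skin at day 1 against day 0 (2 with all arrays), 6 to 6 in transgenic skin at day 7 against day 0 (6 with all arrays), 8 to 9 in transgenic skin at day 7 against day 1 (8 with all arrays), 2 to 5 in wild-type skin at day 1 against day 0 (4 with all arrays), 1 to 5 in wild-type skin at day 7 against day 0 (5 with all arrays), 0 to 2 in wild-type skin at day 7 against day 1 (2 with all arrays), 0 to 1 for the genotypes’ changes at day 1 (0 with all arrays) and 1 to 2 for the genotypes’ changes at day 7 (1 with all arrays). With the mean of a gene’s passing probe sets the counts became 1 between genotypes at day 1, 1 in transgenic skin at day 1 against day 0, 2 in wild-type skin at day 1 against day 0, 4 in wild-type skin at day 7 against day 0, 0 in wild-type skin at day 7 against day 1 and 2 for the genotypes’ changes at day 7, and values that had not passed turned sign: Tsc22d3 -0.047 between genotypes at day 0, Errfi1 0.081 in transgenic skin at day 7 against day 0, Cebpd 0.084 in wild-type skin at day 1 against day 0, Fkbp5 0.10 in wild-type skin at day 1 against day 0, Cebpd 0.13 in wild-type skin at day 7 against day 0, Cebpd 0.043 in wild-type skin at day 7 against day 1 and Klf9 -0.038 for the genotypes’ changes at day 1. On deposited intensities without further scaling the counts became 1 between genotypes at day 1, 1 between genotypes at day 7, 1 in transgenic skin at day 1 against day 0, 5 in transgenic skin at day 7 against day 0, 7 in transgenic skin at day 7 against day 1, 0 in wild-type skin at day 1 against day 0, 2 in wild-type skin at day 7 against day 0, 0 in wild-type skin at day 7 against day 1 and 0 for the genotypes’ changes at day 7, and values that had not passed turned sign: Cebpb 0.12 between genotypes at day 0, Zbtb16 0.13 between genotypes at day 0, Cebpb -0.076 in transgenic skin at day 1 against day 0, Ddit4 -0.053 in transgenic skin at day 1 against day 0, Sgk1 -0.038 in transgenic skin at day 7 against day 0 and Klf9 -0.13 for the genotypes’ changes at day 1. With all passing probe sets tested the counts became 3 in wild-type skin at day 7 against day 0 and 1 for the genotypes’ changes at day 1. Without the filter the counts became 3 in wild-type skin at day 1 against day 0, 2 in wild-type skin at day 7 against day 0 and 1 in wild-type skin at day 7 against day 1. Without a variance trend the counts became 2 in wild-type skin at day 7 against day 0 and 0 in wild-type skin at day 7 against day 1. With only the groups compared in the fit the counts became 6 between genotypes at day 7, 5 in wild-type skin at day 1 against day 0, 1 in wild-type skin at day 7 against day 1 and 2 for the genotypes’ changes at day 7. With quantile normalization the counts became 3 in wild-type skin at day 1 against day 0, 3 in wild-type skin at day 7 against day 0 and 2 for the genotypes’ changes at day 7, and values that had not passed turned sign: Sgk1 0.0047 in transgenic skin at day 7 against day 1. With the replicate number as a block the counts became 3 between genotypes at day 1, 6 between genotypes at day 7, 3 in wild-type skin at day 7 against day 0 and 0 in wild-type skin at day 7 against day 1, and values that had not passed turned sign: Ddit4 -0.046 in transgenic skin at day 1 against day 0 and Cebpd 0.0004 in wild-type skin at day 7 against day 1. Calls gained under these settings were 11: Ddit4 0.62 (adjusted p = 0.0487) between genotypes at day 1 with the block, Ddit4 0.49 (adjusted p = 0.0307) between genotypes at day 7 with only the groups compared, Errfi1 -0.47 (adjusted p = 0.00698) between genotypes at day 7 with only the groups compared, Errfi1 -0.58 (adjusted p = 0.0231) between genotypes at day 7 with the block, Pdk4 -0.88 (adjusted p = 0.044) between genotypes at day 7 with the block, Tsc22d3 -0.28 (adjusted p = 0.0449) between genotypes at day 7 with only the groups compared, Pdk4 -0.76 (adjusted p = 0.0217) in wild-type skin at day 1 against day 0 with only the groups compared, Tsc22d3 1.04 (adjusted p = 0.049) for the genotypes’ changes at day 1 with all passing probe sets, Cebpb 0.46 (adjusted p = 0.0258) for the genotypes’ changes at day 7 with the mean of probe sets, Cebpb 0.34 (adjusted p = 0.0404) for the genotypes’ changes at day 7 with quantile normalization, Sgk1 0.54 (adjusted p = 0.0475) for the genotypes’ changes at day 7 with only the groups compared. Cebpb between genotypes at day 7 was lost with only the groups compared, 0.28 (adjusted p = 0.0659). Leaving out 1 array turned the sign of these values, none of which had passed: Cebpb at -0.080 to 0.0077 between genotypes at day 0, Cebpb at -0.035 to 0.16 in wild-type skin at day 7 against day 0, Cebpd at -0.38 to 0.19 for the genotypes’ changes at day 7, Cebpd at -0.20 to 0.056 in wild-type skin at day 7 against day 1, Ddit4 at -0.11 to 0.19 in transgenic skin at day 1 against day 0, Ddit4 at -0.029 to 0.28 in transgenic skin at day 7 against day 1, Ddit4 at -0.23 to 0.068 in wild-type skin at day 7 against day 0, Errfi1 at -0.37 to 0.10 between genotypes at day 0, Errfi1 at -0.27 to 0.014 in transgenic skin at day 7 against day 0, Errfi1 at -0.025 to 0.44 in wild-type skin at day 7 against day 0, Fkbp5 at -0.56 to 0.12 for the genotypes’ changes at day 7, Fkbp5 at -0.26 to 0.42 between genotypes at day 0, Klf9 at -0.029 to 0.18 for the genotypes’ changes at day 1, Pdk4 at -0.054 to 1.32 for the genotypes’ changes at day 1, Pdk4 at -0.52 to 0.85 between genotypes at day 0, Pdk4 at -0.81 to 0.56 in transgenic skin at day 1 against day 0, Sgk1 at -0.043 to 0.50 in transgenic skin at day 1 against day 0, Sgk1 at -0.39 to 0.16 in transgenic skin at day 7 against day 1, Sgk1 at -0.15 to 0.036 in wild-type skin at day 7 against day 1, Tsc22d3 at -0.066 to 0.14 between genotypes at day 0, Zbtb16 at -0.20 to 0.23 between genotypes at day 0 and Zbtb16 at -0.33 to 0.0022 in wild-type skin at day 7 against day 1. Of 34 passing values of the 10 genes, 374 recomputations under other settings gave the same call 329 times, lost it 45 times and turned no sign, and 544 with 1 array left out kept it 491 times and lost it 53 times. Without further scaling the median over all genes became 0.14 between genotypes at day 0, -0.16 in transgenic skin at day 1 against day 0, -0.13 in transgenic skin at day 7 against day 0, -0.11 in wild-type skin at day 7 against day 1, -0.18 for the genotypes’ changes at day 1 and -0.10 for the genotypes’ changes at day 7. It also changed the share of higher among all genes passing to 75.0% (against 54.2%) between genotypes at day 1, 29.3% (against 48.0%) in transgenic skin at day 7 against day 0, 82.2% (against 44.9%) in wild-type skin at day 1 against day 0, 64.2% (against 47.8%) in wild-type skin at day 7 against day 0, 14.3% (against 38.5%) for the genotypes’ changes at day 1 and 38.8% (against 50.9%) for the genotypes’ changes at day 7; with quantile normalization 11 of 22 passing genes were higher for the genotypes’ changes at day 1. Replicate numbers gave no clear sign of pairing the samples. Deviations from group means correlated at -0.252 to 0.192 (median 0.03) over 36 pairs of same-numbered arrays. Over 70 pairs of other numbers they correlated at -0.207 to 0.252 (median -0.017). In groups of 2 arrays the deviations mirror each other, so this check cannot exclude pairing, and the block is given here alone. The cause of these changes was not tested, and the 2 or 3 arrays a group limit the precision.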
